A study of Mus musculus with 4 samples.

Results

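The Kruppel-like factor (Klf) genes measured here were Klf2, Klf3, Klf4, Klf5, Klf6, Klf7, Klf9, Klf10 and Klf13. They were found by name, as every non-control probe whose gene name in the scanner output was a listed member, which gave 9 genes with 12 probes out of 35157 genes with 54963 probes. RNA from 4 mouse cell populations had been hybridised to 1-colour Agilent arrays, with 1 array for each population. Of these populations, iPS-OSH and iPS-J are lines of induced pluripotent stem cells (somatic cells returned to a state like that of the early embryo), and the others are ESC (embryonic stem cells) and MEF (mouse embryonic fibroblasts). The genetic background was C57BL/6 for the iPS lines and for MEF, and 129SV for ESC. The iPS lines and ESC were cultured with LIF (leukaemia inhibitory factor, a cytokine that keeps mouse stem cells undifferentiated) and with more serum than MEF, for which the labels list no LIF. How either iPS line was made, and whether it carried an added Klf gene, is not given in the sources used here. With 1 array a population no difference has a replicate check, so no p-value is given and differences are described by their size.

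Klf proteins are transcription factors that bind GC-rich and CACCC-type DNA through a conserved block of zinc fingers at the carboxyl end, and their amino-terminal regions decide whether they activate or repress. In mouse ESC, Klf2, Klf4 and Klf5 bind many of the same genes as Oct4, Sox2 and Nanog and help to hold the naive state, and Klf4 is one of the classical reprogramming factors. Klf3 represses through the co-repressor CtBP, Klf9, Klf10 and Klf13 recruit the Sin3A co-repressor, and Klf6 and Klf7 are mostly activators.

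Each array was scaled to the 75th percentile of its processed signal, which was 1564 for iPS-OSH, 1241 for iPS-J, 1307 for ESC and 1765 for MEF. Between 67.0% (iPS-J) and 81.7% (MEF) of 59305 non-control spots were well above background. Probes printed 10 times gave a spot noise of 0.07 to 0.15 (log2 SD within an array), or 0.12 to 0.19 for a difference of 2 arrays, which leaves out the spread between cultures. All arrays were on 1 slide, and the scans fell in 3 sessions, the earliest for MEF, the next for both iPS lines and the last for ESC. Session and culture therefore cannot be told apart from cell type against MEF, and in ESC over MEF neither can strain. Between the iPS lines and ESC, session and strain cannot be told apart from cell type, whereas the iPS lines shared both. The labels were checked against markers, with signals summed as multiples of each array's 75th percentile. The sum of 9 pluripotency markers was 404 for iPS-OSH, 505 for iPS-J and 562 for ESC against 1.69 for MEF, where 6 of the 9 were well above background. The sum of 10 fibroblast markers was 426 for iPS-OSH, 101 for iPS-J, 73.0 for ESC and 1252 for MEF, so the iPS-OSH array stood apart among the pluripotent lines, with 10 of 10 fibroblast markers at least 2-fold higher than in ESC and than in iPS-J. The sum of 7 primitive endoderm markers was 2.90 for iPS-OSH, 65.3 for iPS-J, 5.80 for ESC and 1.59 for MEF, and 7 of 7 were at least 2-fold higher in iPS-J than in ESC. In RNA of whole cultures, fewer cells of a type and less RNA per cell cannot be told apart. The part of these other markers in the Klf differences was not tested, and each comparison below can be read beside the other lines.

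The zinc fingers are so alike across the family that a probe placed there could in principle report a relative, so the probe sequences were compared. The Klf5 probe lay at chr14:99702656-99712388 on the + strand of mm9 and the brightest Klf13 probe at chr7:71082854-71082913 on the - strand. Both are 60 bases long and read the part of the message that codes for zinc fingers, and the Klf5 probe spans 9733 bases of genome, which means that it crosses a splice junction. They are shown 5′ to 3′, with capitals for the bases at which they match when their shared stretch is aligned without gaps.
Klf5 probe: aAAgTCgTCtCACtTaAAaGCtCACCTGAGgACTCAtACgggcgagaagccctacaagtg
Klf13 probe: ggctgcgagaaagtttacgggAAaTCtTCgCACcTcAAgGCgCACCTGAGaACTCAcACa
The probes matched at 29 of 40 aligned bases (72.5%), with a longest common run of 8 bases. All other pairs of Klf probes matched at 54.8% or less over at least 30 aligned bases. No other probe on the array shared a run of 20 bases with any of the 12 Klf probes. The brightest probes of all 9 genes were well above background on all 4 arrays. The Klf5 probe had its lowest scaled signal in MEF and this Klf13 probe its highest there, though not separated from iPS-OSH beyond spot noise. Both probes were higher in the iPS lines than in ESC. The other Klf13 probes did not share this, with log2 differences over ESC of 0.06 and -0.69 for iPS-OSH, and -0.26 and at most -2.20 for iPS-J. Whether the Klf5 probe and the brightest Klf13 probe read each other's message was not tested.

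The 250 bases before the gene start were taken from RefSeq (build GRCm38.p6), which had an entry for 7 of the 9 genes, all but Klf5 and Klf10. Those of Klf2 and Klf6 are shown because Klf2 had the highest ESC signal relative to MEF among the members with an entry and Klf6 the lowest. Both are on the + strand, at chr8:72318812-72319061 for Klf2 and chr13:5861239-5861488 for Klf6. Capitals mark matches, on either strand, to GGGCGG (the core of the GC box), CACCC (the Klf-type site), CCAAT and the MEF2 consensus. Matches that share a base were counted separately.
Klf2 upstream: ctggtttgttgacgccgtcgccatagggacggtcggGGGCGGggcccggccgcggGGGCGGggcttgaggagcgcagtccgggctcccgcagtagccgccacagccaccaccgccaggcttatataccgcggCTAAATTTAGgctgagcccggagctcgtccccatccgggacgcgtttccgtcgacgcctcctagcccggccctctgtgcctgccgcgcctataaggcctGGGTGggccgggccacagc
Klf6 upstream: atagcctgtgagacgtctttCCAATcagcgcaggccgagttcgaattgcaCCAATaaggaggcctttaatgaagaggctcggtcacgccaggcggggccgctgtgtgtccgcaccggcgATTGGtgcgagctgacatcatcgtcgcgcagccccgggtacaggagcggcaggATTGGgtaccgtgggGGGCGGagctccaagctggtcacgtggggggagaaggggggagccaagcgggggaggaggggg
The Klf2 window held 2 GGGCGG, 1 CACCC and 1 MEF2 consensus, whose first base was 118 bases before the start, and no CCAAT. The Klf6 window held 4 CCAAT, with first bases 230, 200, 131 and 78 bases before the start, and 1 GGGCGG. Of the 7 windows, 6 held GGGCGG, against 32.7% of 32851 upstream windows of all genes, 5 held CACCC against 52.0%, and 3 held CCAAT against 33.8%. The MEF2 consensus was present at Klf2 alone of the 7, and in 2.92% of all windows. TTCNNNGAA, the form of site that STAT3 binds, was present in 1 of the 7, that of Klf9, and in 7.02% of all windows. TATAAA was in none of the 7 and in 12.4% of all windows. The Klf windows were rich in G and C, at 71.2% for Klf2 and 64.8% for Klf6 against a median of 52.4% over all windows. A match describes letters only and is not a site of binding.

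Set against MEF, the stem cell lines had more signal for Klf2, Klf5, Klf9 and Klf10 and less for Klf6 and Klf7, by at least 2-fold in each line. The comparisons share the MEF array, so each is given with its own values. In iPS-OSH over MEF, 4 members were at least 2-fold higher and 2 lower, where 12.6% of 31161 genes compared were higher and 23.4% lower. In iPS-J over MEF, Klf4 joined the higher members and Klf3 the lower, making 5 higher and 3 lower, where 16% of 30660 genes were higher and 23.6% lower. In ESC over MEF, 5 members were higher and, with Klf13, 4 were lower, where 21.8% of 31396 genes were higher and 16.5% lower. At 4-fold, 2 members were higher and 0 lower in iPS-OSH (4.72% and 3.3% of all genes), 3 higher and 1 lower in iPS-J (6.64% and 6.88%), and 4 higher and 1 lower in ESC (8.37% and 6.6%). The median absolute log2 difference of the 9 members was 1.57 for iPS-OSH, 1.89 for iPS-J and 2.33 for ESC, beside medians over all genes of 0.74 for iPS-OSH, 0.78 for iPS-J and 0.74 for ESC. The signed medians of the members were 0.43 for iPS-OSH, 1.10 for iPS-J and 1.07 for ESC, and those over all genes were -0.32 for iPS-OSH, -0.19 for iPS-J and 0.11 for ESC.

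**Figure D1:**
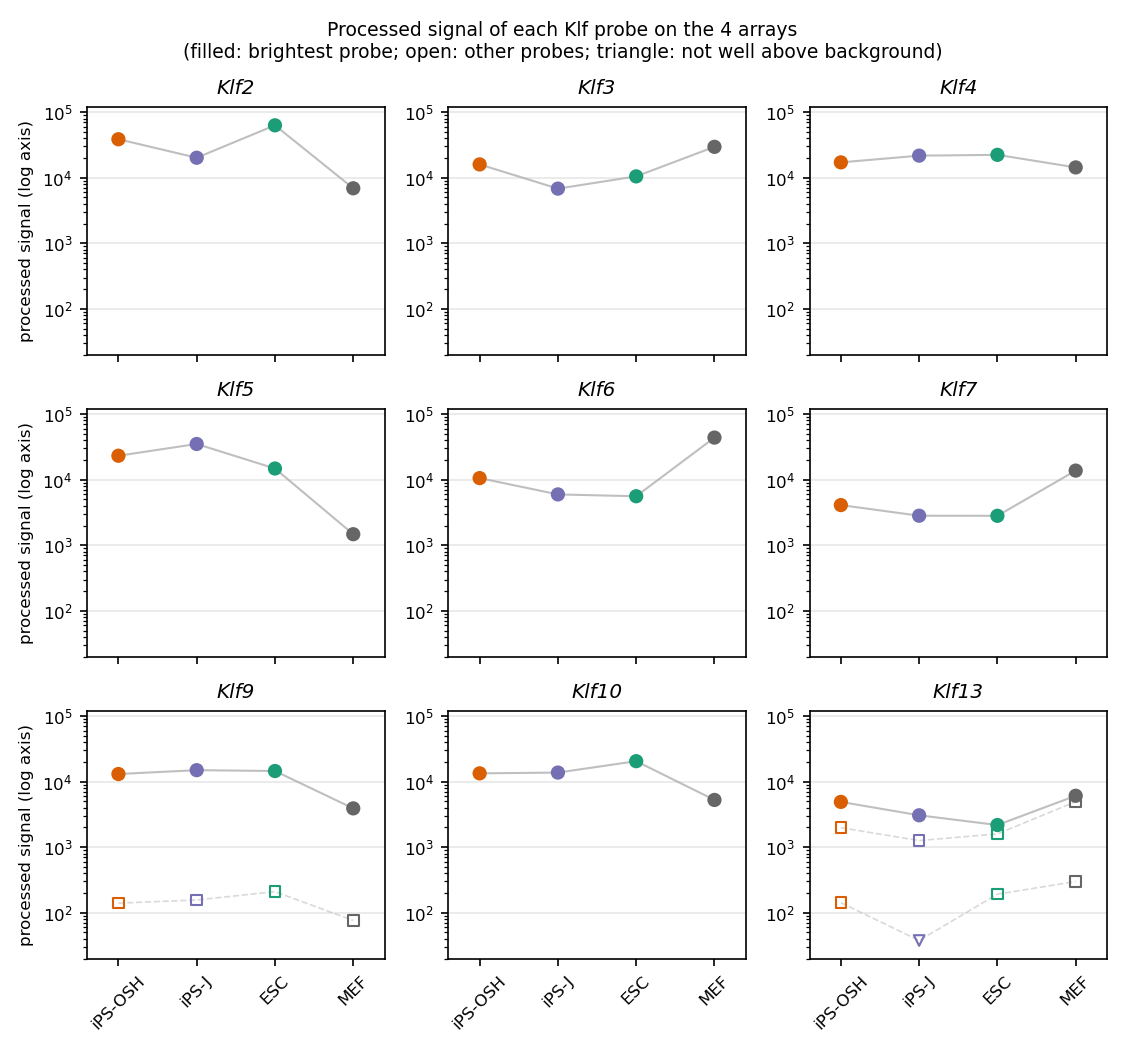
Processed signal (log axis) of every Klf probe on the iPS-OSH, iPS-J, ESC and MEF arrays, with the brightest probe of each gene filled, the other probes of Klf9 and Klf13 open, and a triangle where a probe was not well above background. Klf2, Klf4, Klf5, Klf9 and Klf10 were lowest on the MEF array, and Klf3, Klf6, Klf7 and Klf13 were highest there.

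Klf5, a factor of epithelial progenitors that also restrains differentiation of mouse ESC, had signals of 23193 for iPS-OSH, 35050 for iPS-J and 14809 for ESC against 1473 for MEF. All 3 pluripotent lines were far above MEF, and iPS-J was the highest of them. The log2 difference from MEF was 4.15 for iPS-OSH (17.8-fold), 5.08 for iPS-J (33.8-fold) and 3.76 for ESC (13.6-fold). Only 1.12% of all genes had a larger positive difference in iPS-OSH over MEF, 0.939% in iPS-J over MEF and 2.36% in ESC over MEF. Klf5 had the widest range of the 9 members over the 4 arrays, and 2.54% of 31861 genes well above background on at least 1 array ranged more widely.

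Klf5 also differed among the pluripotent lines, with a log2 difference of 1.32 in iPS-J over ESC (2.49-fold), -0.93 in iPS-OSH over iPS-J and 0.39 in iPS-OSH over ESC. Epithelial markers, of a tissue that uses Klf5, had summed signals of 22.6 for iPS-OSH, 56.3 for iPS-J, 32.2 for ESC and 2.22 for MEF, so iPS-J was again the highest and MEF the lowest. The keratin gene Krt8 had signals of 6815 for iPS-OSH, 15131 for iPS-J, 6267 for ESC and 574 for MEF. In iPS-J over ESC the log2 difference was 1.35 for Krt8, 1.32 for Krt18 and 1.54 for Cldn6. It was only 0.49 for Epcam and -0.13 for Cdh1, which was highest in ESC. In iPS-OSH over ESC the median of the 5 epithelial markers was -0.48, where Klf5 had 0.39. iPS-J was also the line with the highest primitive endoderm markers, given above, and the part of either marker group in the Klf5 value was not tested.

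Klf2, a factor of quiescent T cells and endothelium that is a naive state factor in mouse ESC, had signals of 38672 for iPS-OSH, 20186 for iPS-J and 63054 for ESC against 6906 for MEF. Every neighbour in the order ESC, iPS-OSH, iPS-J, MEF was separated by more than 2 SD of spot noise. On the log2 scale the difference from MEF was 2.66 for iPS-OSH (6.32-fold), 2.06 for iPS-J (4.16-fold) and 3.62 for ESC (12.3-fold). Both iPS lines lay below ESC, by a log2 difference of -0.96 for iPS-OSH (1.95-fold lower) and -1.57 for iPS-J (2.97-fold lower). Strain and scan session differ between the iPS lines and ESC and cannot be told apart from cell type here. The Klf2 probe lay at chr8:74845137-74845196 on the + strand of mm9. Klf2 had the widest range of the 9 members over the 3 pluripotent arrays, 2.97-fold, where the median gene ranged 2.05-fold. Endothelium also uses Klf2, and the summed signals of 5 endothelial markers were 6.48 for iPS-OSH, 9.41 for iPS-J and 6.17 for ESC against 8.23 for MEF. Most of each sum came from the receptor gene Kdr, with signals of 8695 for iPS-OSH, 10606 for iPS-J and 6324 for ESC against 14098 for MEF. The adhesion gene Pecam1 had signals of 959 for iPS-OSH, 703 for iPS-J and 1429 for ESC against 298 for MEF. That is the order of arrays of Klf2, but after scaling the iPS lines were not separated beyond spot noise (log2 difference 0.12). The markers Cdh5 and Tek had other orders. Cdh5 had signals of 42.1 for iPS-OSH, 294 for iPS-J and 114 for ESC, and its MEF signal, 22.0, was too dim to call. Tek had signals of 434 for iPS-OSH, 68.7 for iPS-J and 171 for ESC against 92.6 for MEF. Of the 4 endothelial markers that could be compared, those higher than in MEF by at least 2-fold numbered 2 for iPS-OSH, 2 for iPS-J and 3 for ESC, and 0 were lower. The receptor Tie1 was not well above background on any array, and the part of endothelial markers in the Klf2 values was not tested.

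Klf4, a target of LIF and STAT3 in mouse ESC, differed least from MEF of the naive state factors. Its signals were 17150 for iPS-OSH, 21725 for iPS-J and 22353 for ESC against 14374 for MEF. The MEF signal was the lowest, and the scaled values of iPS-J and ESC were not separated beyond spot noise. Relative to MEF, the log2 difference was 0.43 for iPS-OSH (1.35-fold), 1.10 for iPS-J (2.15-fold) and 1.07 for ESC (2.10-fold). The last 2 lie just past 2-fold and were 0.80 for iPS-J and 0.58 for ESC with scaling on spike-in probes, and 0.59 for iPS-J and 0.64 for ESC with the deposited values unscaled. Over all 4 arrays the range was 2.15-fold, and 68.3% of genes ranged more widely. The probe lay at chr4:55540167-55540226 on the - strand of mm9, and whether it can read an added copy of the gene was not tested.

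Klf6 and Klf7 were the members with the most signal in MEF relative to the stem cell lines. Klf6, an early response activator of growth and matrix genes, had signals of 10572 for iPS-OSH, 5961 for iPS-J and 5590 for ESC against 43876 for MEF. That is a log2 difference from MEF of -1.88 for iPS-OSH (3.68-fold lower), -2.37 for iPS-J (5.18-fold lower) and -2.54 for ESC (5.81-fold lower). iPS-OSH lay above iPS-J and ESC, which were not separated from each other beyond spot noise. The Klf6 probe lay at chr13:5869371-5869430 on the + strand and the Klf7 probe at chr1:64082265-64082324 on the - strand. Klf7, best known for neuronal differentiation, had signals of 4098 for iPS-OSH, 2820 for iPS-J and 2813 for ESC against 13758 for MEF. Its log2 difference from MEF was -1.57 for iPS-OSH, -1.78 for iPS-J and -1.86 for ESC (3.62-fold lower). Klf7 was the least variable member among the pluripotent lines, with a range of 1.22-fold, and no neighbours among the 3 lines were separated beyond spot noise.

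Klf3, the CtBP-dependent repressor, had signals of 15973 for iPS-OSH, 6820 for iPS-J and 10490 for ESC against 29616 for MEF. All neighbours in the order MEF, iPS-OSH, ESC, iPS-J were separated beyond spot noise, and iPS-J was the lowest. The gap between iPS-OSH and ESC, 0.35, was barely past its limit of 0.33 and depended on the scaling. It was 0.18 with quantile normalisation and 0.72 with spike-in scaling. The probe lay at chr5:65221309-65221368 on the + strand. The log2 difference from MEF was -0.72 for iPS-OSH (1.64-fold lower), -1.61 for iPS-J (3.05-fold lower) and -1.06 for ESC (2.09-fold lower). The ESC value lies at the 2-fold line and was -0.80 with quantile normalisation. Between the iPS lines, which shared strain and scan session, Klf3 was 1.86-fold higher in iPS-OSH, a log2 difference of 0.89 that reached 1.08 with spike-in scaling.

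**Figure D2:**
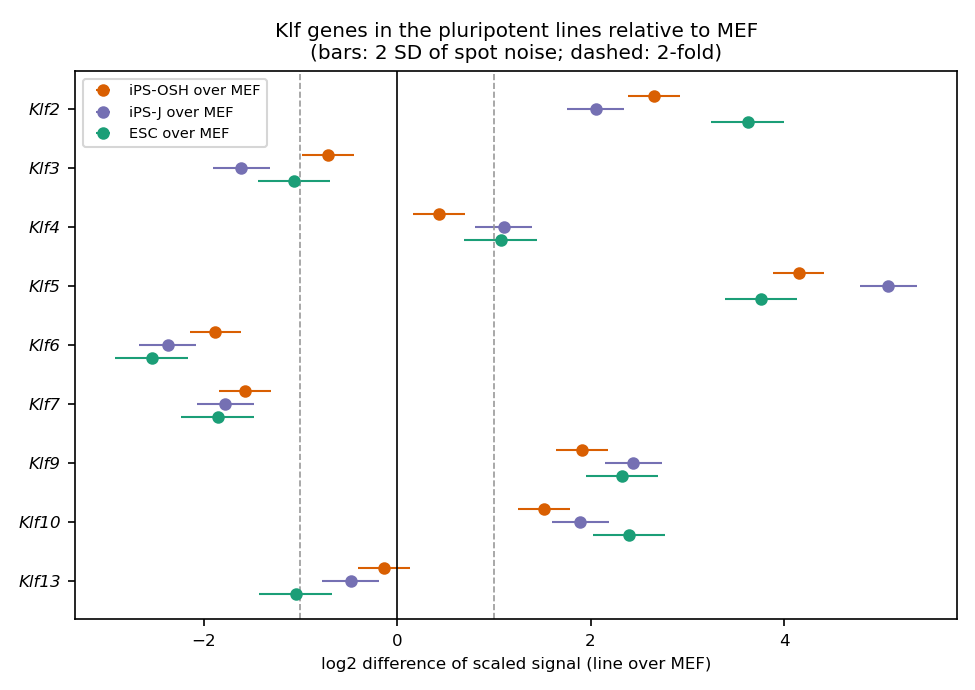
Log2 difference of the scaled signal of each Klf gene in iPS-OSH, iPS-J and ESC over MEF, with bars of 2 SD of spot noise either side and dashed lines at 2-fold. Klf5 lies farthest to the right in all 3 lines (3.76 to 5.08) and Klf6 farthest to the left (-1.88 to -2.54), and Klf13 and Klf4 lie nearest 0 in iPS-OSH.

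Klf9 and Klf10, repressors that are induced by hormones and by transforming growth factor beta, had more signal in the stem cell lines. Klf9 had signals of 13067 for iPS-OSH, 14962 for iPS-J and 14517 for ESC against 3909 for MEF. On the log2 scale the difference from MEF was 1.92 for iPS-OSH (3.77-fold), 2.44 for iPS-J (5.44-fold) and 2.33 for ESC (5.01-fold). This probe lay at chr19:23240410-23240469 on the + strand. The other Klf9 probe, at chr19:23243231-23243290, was dimmer and also lowest in MEF, with signals of 140.0 for iPS-OSH, 157 for iPS-J and 210 for ESC against 76.2 for MEF. Its log2 differences from MEF were smaller, 1.05 for iPS-OSH, 1.55 for iPS-J and 1.89 for ESC.

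Klf10 had signals of 13377 for iPS-OSH, 13746 for iPS-J and 20512 for ESC against 5257 for MEF. The probe lay at chr15:38224255-38224314 on the - strand. MEF was the lowest array and ESC the highest, with every neighbour separated beyond spot noise after scaling. Relative to MEF, the log2 difference was 1.52 for iPS-OSH (2.87-fold), 1.89 for iPS-J (3.72-fold) and 2.40 for ESC (5.27-fold). Both iPS lines lay below ESC by less than 2-fold, with log2 differences of -0.88 for iPS-OSH and -0.50 for iPS-J.

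Klf13, a repressor and activator first studied in lymphocytes and heart, was the member whose value turned on the probe. Its brightest probe, the one shown above, had signals of 4908 for iPS-OSH, 3066 for iPS-J and 2177 for ESC against 6086 for MEF. These gave log2 differences from MEF of -0.14 for iPS-OSH, -0.48 for iPS-J and -1.05 for ESC, and iPS-OSH and MEF were not separated beyond spot noise. The next brightest Klf13 probe had signals of 1982 for iPS-OSH, 1262 for iPS-J and 1593 for ESC against 4948 for MEF. With it the log2 differences from MEF were -1.15 for iPS-OSH, -1.46 for iPS-J and -1.20 for ESC, so that all 3 lines were past 2-fold. That probe lay at chr7:71032482-71032541 and was listed on the + strand, opposite to the other Klf13 probes, and which RNA it reads was not tested. The remaining Klf13 probe was dim, with signals of 142 for iPS-OSH, 192 for ESC and 299 for MEF, and was not well above background in iPS-J at 37.7. The MEF array's file gave that probe a transcript name in place of Klf13. All 3 Klf13 probes were brightest on the MEF array, but only the probe listed on the + strand had MEF separated from every line beyond spot noise. For the dim probe, MEF and ESC were not separated (scaled log2 difference 0.21).

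**Figure D3:**
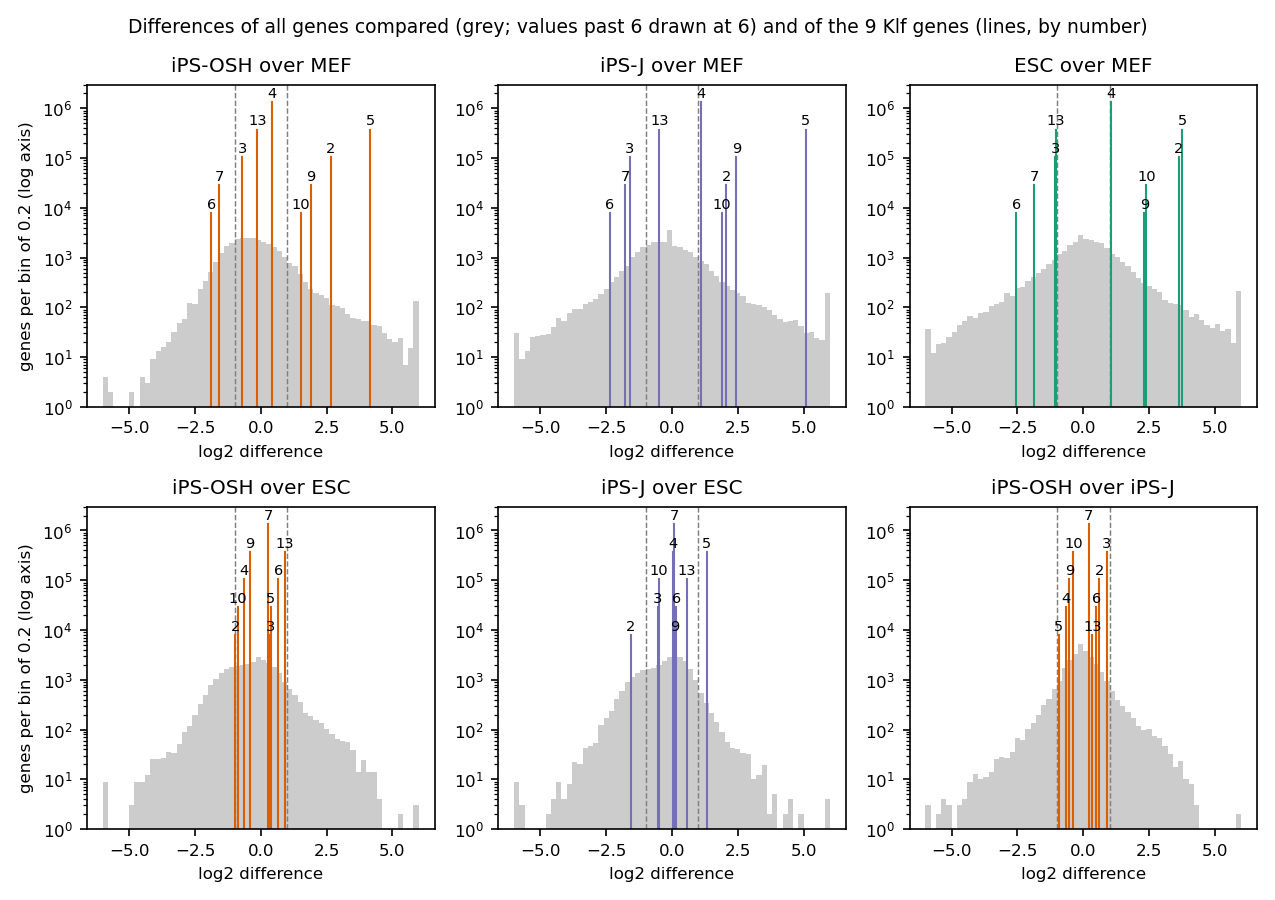
Number of genes (log axis) by log2 difference in each of the 6 comparisons in grey, with the 9 Klf genes drawn as numbered lines whose height has no meaning and dashed lines at 2-fold. Against MEF the Klf lines spread to both sides, up to 5.08 for Klf5 in iPS-J, while among the pluripotent lines all but Klf5 and Klf2 in iPS-J over ESC lie within 2-fold.

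Among the stem cell lines 2 members differed by at least 2-fold, Klf5 and Klf2, both in iPS-J over ESC. In iPS-OSH over ESC, 0 members were at least 2-fold higher and 0 lower, where 8.73% of 30567 genes compared were higher and 26.5% lower. In iPS-J over ESC, 1 member was higher, Klf5, and 1 was lower, Klf2, where 5.37% of 29583 genes were higher and 23% lower. In iPS-OSH over iPS-J, the comparison within 1 strain and session, 0 members were higher and 0 lower, where 7.86% of 29242 genes were higher and 7.28% lower. The median absolute log2 difference of the members was 0.64 in iPS-OSH over ESC, 0.50 in iPS-J over ESC and 0.53 in iPS-OSH over iPS-J, beside 0.69, 0.58 and 0.38 over all genes in the same comparisons. The medians over all genes include dim genes set to 0 because their order could not be called, whereas every member was measured. At 4-fold, 0 members were higher or lower in the 3 comparisons, where 2.52% of genes were higher and 4.81% lower in iPS-OSH over ESC, 0.896% and 3.95% in iPS-J over ESC, and 2.07% and 1.45% in iPS-OSH over iPS-J. The members nearest to the 2-fold line were Klf2 (-0.96), Klf13 (0.91) and Klf10 (-0.88) in iPS-OSH over ESC, and Klf5 (-0.93) and Klf3 (0.89) in iPS-OSH over iPS-J.

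The place of each iPS line between ESC, set to 0%, and MEF, set to 100%, was computed on the log2 scale for each member. In iPS-OSH, 8 of the 9 members lay between the ends, from 15.3% for Klf7 to 87.0% for Klf13, and Klf5 lay beyond ESC at -10.3%. In iPS-J, 5 of the 9 lay between the ends, with Klf7 at 4.25%, Klf6 at 6.60%, Klf10 at 21.0%, Klf2 at 43.3% and Klf13 at 54.2%. The other 4 lay on the far side of ESC, with Klf4 at -3.16%, Klf9 at -5.10%, Klf5 at -35.0% and Klf3 at -51.3%. Klf4 was at 59.9% for iPS-OSH. The ESC and MEF values were only 2.10-fold apart for Klf4, 2.09-fold for Klf3 and 2.07-fold for Klf13, so small differences move their places far. The places of Klf13 and Klf9 turned on the probe. With the next brightest Klf13 probe, Klf13 lay at 4.73% for iPS-OSH and beyond ESC at -21.7% for iPS-J. With the dimmer Klf9 probe, Klf9 lay at 44.5% for iPS-OSH and between the ends, at 18.4%, for iPS-J. The same measure for the 10 fibroblast markers ran from 27.2% for Col3a1 to 145.8% for Dcn in iPS-OSH and from -18.2% to 24.0% for iPS-J. Over all 4244 genes at least 2-fold higher in MEF than in ESC, the median place was 43.9% for iPS-OSH and 18.4% for iPS-J. Over the 5067 genes at least 2-fold lower in MEF, it was 44.6% for iPS-OSH and 22.7% for iPS-J. Klf2 was the member that lay nearer to MEF in iPS-J than in iPS-OSH, and the other 8 lay nearer to MEF in iPS-OSH.

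**Figure D4:**
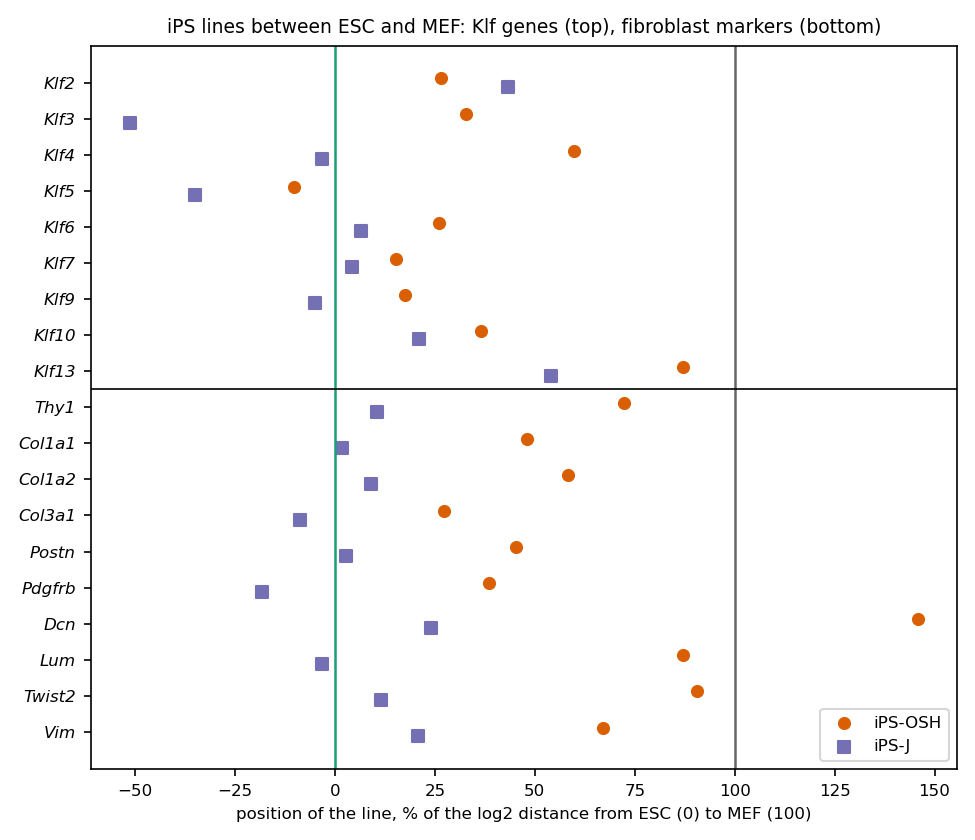
Place of iPS-OSH (circles) and iPS-J (squares) on the log2 distance from ESC (0%) to MEF (100%) for the 9 Klf genes above the line and the 10 fibroblast markers below it. The iPS-OSH circles of the Klf genes run from -10.3% to 87.0% and those of the fibroblast markers from 27.2% to 145.8%.

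The 4 values of each member, centred on their mean, were compared between members by the root mean square difference on the log2 scale. The values of Klf2, Klf4 and Klf5 were also compared with 14904 other genes well above background on all arrays. Genes with names such as clone, accession or predicted-gene names had been left out, so nearest genes and ranks hold among the remaining genes only. The closest members were Klf9 and Klf10 (0.26), Klf6 and Klf7 (0.27) and Klf3 and Klf7 (0.38), and the farthest were Klf5 and Klf6 (2.91). For Klf2 the nearest other genes were Defb30 (0.11), Pramel7 (0.12) and Rundc3a (0.15). Pramel7, a gene of the early mouse embryo that LIF and STAT3 are known to raise in ESC, had signals of 309 for iPS-OSH, 185 for iPS-J and 630 for ESC against 58.9 for MEF. For Klf5 they were Prkcz (0.14), Ccdc160 (0.14) and Palm3 (0.15). Prkcz, an atypical protein kinase C of epithelial polarity, had signals of 1558 for iPS-OSH, 2153 for iPS-J and 1083 for ESC against 117 for MEF. For Klf4 they were Zwilch (0.01), Zfp512 (0.02) and Cox7c (0.02), closer than spot noise. Zwilch, a kinetochore gene, had signals of 11912 for iPS-OSH, 14873 for iPS-J and 15195 for ESC against 9921 for MEF. The member nearest to Klf4 in this pattern, Klf10, stood at rank 4741. With 4 arrays such likeness is a description of these values only.

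Of the other Klf genes, 8 of 8 on the list were on the array. In iPS-OSH over MEF, 2 were at least 2-fold higher and 1 lower, in iPS-J over MEF 4 and 1, and in ESC over MEF 5 and 0. Of all genes compared, 12.6% were higher and 23.4% lower in iPS-OSH over MEF, and 16% and 23.6% in iPS-J over MEF. In ESC over MEF the shares were 21.8% and 16.5%. Over ESC they were 8.73% and 26.5% for iPS-OSH, and 5.37% and 23% for iPS-J. Counts for the lists below can be read beside these shares. Klf15, a metabolic regulator, had signals of 363 for iPS-OSH, 596 for iPS-J and 867 for ESC against 161 for MEF, which is a log2 difference of 1.35 for iPS-OSH, 2.40 for iPS-J and 2.87 for ESC. Klf8, a CtBP-binding relative of Klf3, had signals of 2162 for iPS-OSH, 2312 for iPS-J and 1919 for ESC against 520 for MEF, so it ran opposite to Klf3 against MEF. Klf11, the relative of Klf10, had log2 differences from MEF of 0.97 for iPS-OSH, 2.30 for iPS-J and 1.98 for ESC, and the erythroid factor Klf1, at signals of 145 to 190 in the stem cell lines against 86.8 for MEF, had 0.91 for iPS-OSH, 1.47 for iPS-J and 1.57 for ESC. Klf17, a factor of germ cells and of the human naive state, had signals of 309 for iPS-OSH, 262 for iPS-J and 595 for ESC against 841 for MEF.

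The Sp genes share the zinc finger block with the Klf family. Of 9 on the array, 1 was at least 2-fold higher and 1 lower in iPS-OSH over MEF, 3 and 2 in iPS-J over MEF, and 4 and 1 in ESC over MEF. Their median log2 difference from MEF was 0.10 for iPS-OSH, 0.48 for iPS-J and 0.85 for ESC, and the medians of both iPS lines turned negative with the deposited values unscaled, as that of iPS-OSH did with spike-in scaling. Sp5, a target of Wnt signalling, had signals of 955 for iPS-OSH, 313 for iPS-J and 224 for ESC against 51.7 for MEF. Its log2 difference was 4.38 in iPS-OSH over MEF, 1.83 in iPS-OSH over ESC and 1.28 in iPS-OSH over iPS-J, so that iPS-OSH was the highest array. The other named Sp genes had log2 differences in ESC over MEF of 1.29 for Sp4, 1.53 for Sp6 and -1.30 for Sp8.

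**Figure D5:**
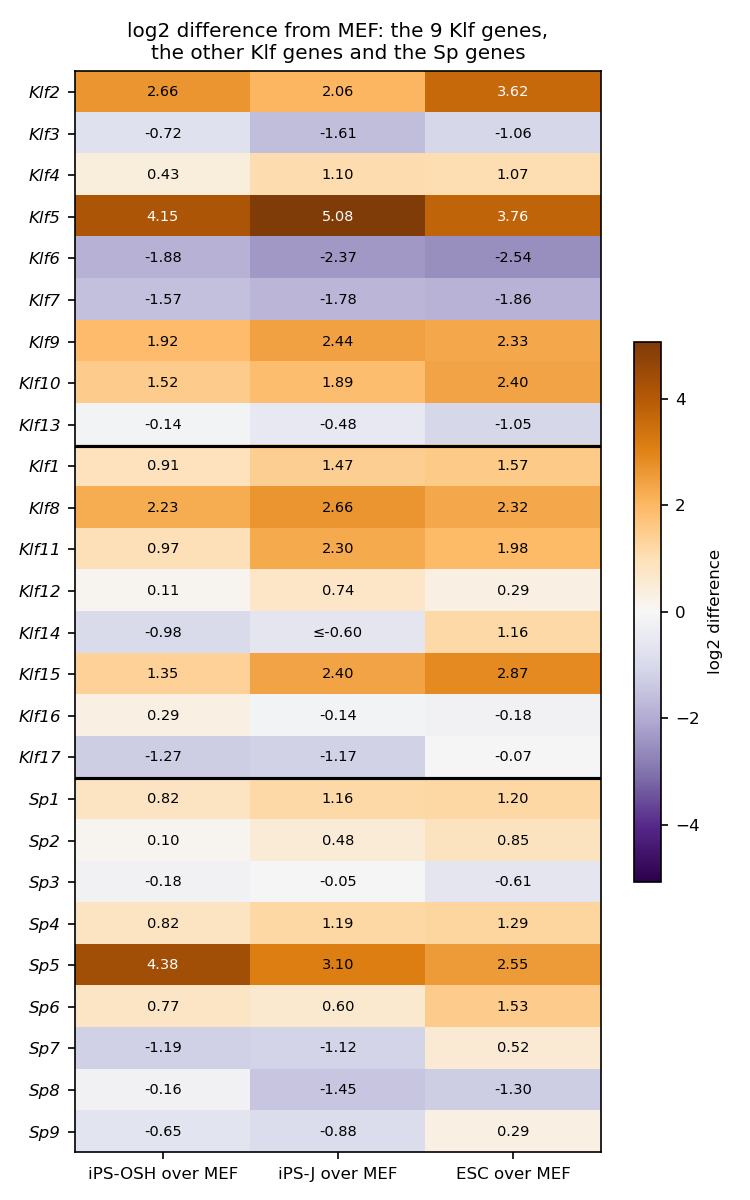
Log2 difference from MEF in iPS-OSH, iPS-J and ESC (columns) for the 9 Klf genes, the other 8 Klf genes and the 9 Sp genes (rows), with each value printed in its cell and a bound marked where a probe was not well above background. The highest Klf value is 5.08, for Klf5 in iPS-J, and the highest Sp value is 4.38, for Sp5 in iPS-OSH.

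Genes known in mouse ESC to be bound by Klf2, Klf4 and Klf5 were far higher in the stem cell lines, and this list was drawn up from genes of the naive state, so its direction is part of how it was chosen. All 11 were at least 2-fold higher than in MEF in iPS-OSH, iPS-J and ESC, and the median log2 difference was 7.62 for iPS-OSH, 7.66 for iPS-J and 7.40 for ESC, with 3 of the 11 values lower bounds in each. Nanog, the homeodomain factor of the naive state, had signals of 80560 for iPS-OSH, 64738 for iPS-J and 86762 for ESC against 183 for MEF. Fbxo15, an Oct4 target, had signals of 28100 for iPS-OSH, 26967 for iPS-J and 79667 for ESC against 80.8 for MEF. Sox2 and Tcl1 were not well above background in MEF, and their log2 differences were at least 8.75 and 8.55 for iPS-OSH, 9.04 and 9.43 for iPS-J, and 9.31 and 10.01 for ESC. Against ESC, 2 of the 11 were lower in iPS-OSH, Fbxo15 (-1.76) and Tcl1 (-1.46), 1 was lower in iPS-J, Fbxo15 (-1.49), and 0 were higher in either.

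LIF acts on Klf4 through STAT3, and the kinase ERK5 acts on Klf2 through MEF2 factors. Of 10 genes on this list, 0 were at least 2-fold higher and 3 lower in iPS-OSH over MEF, 2 and 5 in iPS-J over MEF, and 1 and 5 in ESC over MEF. Over all genes, 12.6% were higher and 23.4% lower in iPS-OSH, 16% and 23.6% in iPS-J, and 21.8% and 16.5% in ESC. Il6st, which encodes the shared receptor chain gp130, had signals of 5915 for iPS-OSH, 3238 for iPS-J and 2683 for ESC against 26391 for MEF. The kinase gene Jak1 had log2 differences from MEF of -2.08 for iPS-OSH, -2.13 for iPS-J and -2.41 for ESC. Socs3, a feedback inhibitor that STAT3 induces, had signals of 18702 for iPS-OSH, 39048 for iPS-J and 42149 for ESC against 15435 for MEF. Its log2 difference was -1.43 in iPS-OSH over ESC and -1.40 in iPS-OSH over iPS-J. Klf4 was also lowest in iPS-OSH among the stem cell lines, by less than 2-fold. In iPS-OSH over ESC the LIF receptor gene Lifr had -0.47, whereas Il6st had 0.88, Stat3 0.35 and Jak1 0.33. The part of LIF and STAT3 in the Klf4 values was not tested. Mef2d had log2 differences from MEF of -0.64 for iPS-OSH, -1.66 for iPS-J and -1.70 for ESC, and Mapk7, which encodes ERK5, of 0.14 for iPS-OSH, 0.15 for iPS-J and 0.21 for ESC.

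Of 11 co-repressors and co-activators of Klf proteins, 5 were at least 2-fold higher and 1 lower in iPS-OSH over MEF, 5 and 1 in iPS-J over MEF, and 4 and 2 in ESC over MEF. Sin3a, which encodes the scaffold that Klf9, Klf10 and Klf13 bind, had signals of 7664 for iPS-OSH, 8265 for iPS-J and 8364 for ESC against 2992 for MEF. Sap30, a Sin3 complex subunit, had log2 differences from MEF of 1.83 for iPS-OSH, 2.59 for iPS-J and 2.38 for ESC. The acetyltransferase gene Kat2b had 1.35 for iPS-OSH, 1.57 for iPS-J and 1.89 for ESC. The CtBP genes, whose products Klf3 and Klf8 bind, went in opposite directions, since Ctbp1 had -1.36 for iPS-OSH, -1.51 for iPS-J and -1.67 for ESC and Ctbp2 had 1.22 for iPS-OSH, 1.48 for iPS-J and 0.87 for ESC. The median of this list in iPS-J and ESC over MEF, 0.38 and 0.39, turned negative with the deposited values unscaled, and that of ESC also with spike-in scaling. Of 5 ubiquitin ligases that act on Klf proteins, 0 were 2-fold higher or lower in any of the 6 comparisons, and the largest log2 difference from MEF was 0.63 in size, for Wwp1 in ESC.

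Klf10 was first found as a gene induced by transforming growth factor beta. Most genes of that pathway on the list had less signal in the stem cell lines than in MEF. Such signals do not measure the activity of the pathway, and its part in the Klf10 values was not tested. Of 10 such genes, 0 were at least 2-fold higher and 6 lower in iPS-OSH over MEF, 0 and 7 in iPS-J over MEF, and 0 and 8 in ESC over MEF. The log2 difference from MEF of the ligand gene Tgfb3 was -3.01 for iPS-OSH, -4.95 for iPS-J and -5.13 for ESC, and that of the receptor gene Tgfbr2 was -0.95 for iPS-OSH, -3.80 for iPS-J and -4.15 for ESC. The ligand gene Tgfb2 had -1.85 for iPS-OSH, -3.69 for iPS-J and -3.79 for ESC. Against ESC, 6 of the 10 were higher in iPS-OSH and 0 of 10 in iPS-J, and iPS-OSH was also the line with the higher fibroblast markers, whose part in this was not tested.

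Klf9 is induced by glucocorticoid and thyroid hormone. Of 8 genes of these inputs, 0 were at least 2-fold higher and 3 lower in iPS-OSH over MEF, 1 and 3 in iPS-J over MEF, and 1 and 3 in ESC over MEF. The glucocorticoid receptor gene Nr3c1 had signals of 5052 for iPS-OSH, 2624 for iPS-J and 1794 for ESC against 13786 for MEF, so it was highest where Klf9 was lowest. Thra, a thyroid hormone receptor gene, had log2 differences from MEF of -1.73 for iPS-OSH, -1.85 for iPS-J and -2.14 for ESC. Of the glucocorticoid-induced genes, Tsc22d3 had -2.33 for iPS-OSH, -2.89 for iPS-J and -2.41 for ESC, whereas Fkbp5 had 0.63 for iPS-OSH, 1.06 for iPS-J and 1.08 for ESC. The part of these hormone inputs in the Klf9 values was not tested.

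Several Klf genes, Klf6 and Klf10 among them, are induced soon after stimulation, as are the immediate early genes. Of 13 on that list, 12 were on the array, and 1 was at least 2-fold higher and 1 lower in iPS-OSH over MEF, 1 and 4 in iPS-J over MEF, and 1 and 6 in ESC over MEF. Jun had signals of 18884 for iPS-OSH, 4174 for iPS-J and 2784 for ESC against 27218 for MEF. Fosl1 had signals of 2777 for iPS-OSH, 304 for iPS-J and 334 for ESC against 3585 for MEF. Egr2 had log2 differences from MEF of -2.52 for iPS-OSH, -3.58 for iPS-J and -4.09 for ESC, and Myc of 0.76 for iPS-OSH, -0.40 for iPS-J and -1.98 for ESC. In iPS-OSH over ESC, 6 of the 12 were higher and 0 lower, and the median of the list was 0.96 on the log2 scale beside -0.28 over all genes. The fibroblast markers were higher in the same comparison, 10 of 10 by at least 2-fold with a median log2 difference of 2.63, and their part in this was not tested. Klf6 was in the same order, with log2 differences of 0.66 in iPS-OSH over ESC and 0.49 in iPS-OSH over iPS-J, both under 2-fold, and Klf10 was not, with -0.88 and -0.37.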

How the data were processed

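Each of the 4 populations was measured on 1 array. Per the file headers, Agilent Feature Extraction 10.5.1.1 made the deposited scanner files, in which the intensity of each of 62976 spots is background-subtracted and not normalized between arrays. The deposited value table holds the same intensity rounded, within 0.497% of the scanner output. The 9 members, the gene lists and the markers were chosen with earlier results of these data known.

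Uneven and outlying spots were left out. The log2 intensity (from the deposited gProcessedSignal) was reduced by its array's 75th percentile over non-control spots. A gene was read from its brightest probe (highest mean over the 4 arrays) and compared if either array had it well above background. If just 1 did, the difference is a bound, taken against the dim array's lowest well-detected signal or the probe's own, whichever is higher. Where such a bound gave no order, the difference was set to 0 and kept in the shares and medians over all genes. A difference of at least 2-fold was counted, a rule of size, since no test was possible. Neighbouring arrays were called separated beyond 2 SD of spot noise. All members were named, up to 4 genes of each list with the largest difference from MEF and those the text needed beside them, and the 3 genes nearest in pattern to Klf2, Klf4 and Klf5. A single gene of the lists is not reported here by name. Probe coordinates are mm9 from the files, without exon or UTR, as no annotation of that build was used. The MEF file came from another version of the array design, in which 1732 spots had other gene names. Matching to a RefSeq table named 26425 probes through accession, 3988 through symbol and 826 through synonym. The remaining 24442 have the file's name. Tools were Python 3.11.15, pandas 2.3.3, numpy 2.4.6 and, for normexp, limma 3.58.1 in R 4.3.3. The procedure was tested on simulated data. The alternatives tried were 9: normexp (offset 50), quantile normalisation, the 75th percentile of commonly detected probes, scaling on 10 spike-in probes, no filter on dim probes, detection above the 95th percentile of 308 negative control spots, a gene's median probe, the deposited table unscaled, and a 4-fold threshold.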

Additional observations from a re-analysis of the deposited data

How the results depend on the processing

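At a 4-fold threshold the count of members that differed was 2 in iPS-OSH over MEF, 4 in iPS-J over MEF, 5 in ESC over MEF and 0 in iPS-J over ESC. Which members passed 4-fold depended on the scaling. With spike-in scaling, Klf2 in iPS-J over MEF fell to 1.75 on the log2 scale, under 4-fold. In ESC over MEF, Klf9 and Klf10 fell to 1.83 and 1.90. Klf7 then passed 4-fold, at -2.09 in iPS-J over MEF and -2.35 in ESC over MEF. In iPS-OSH over ESC, where 0 members passed 2-fold, 2 were lower with quantile normalisation and with the 75th percentile of commonly detected probes (Klf2 and Klf10), 2 were higher with spike-in scaling (Klf6 and Klf13), and 1 was higher with the deposited values unscaled (Klf13). Over all genes in iPS-OSH over ESC, 15.2% were lower with quantile normalisation and 32.3% with the 75th percentile of commonly detected probes. With spike-in scaling 15.5% were higher there, and with the deposited values unscaled 12.9%. In iPS-OSH over iPS-J, 1 member, Klf3, passed with spike-in scaling and with the deposited values unscaled, where 10.8% and 14.0% of all genes were higher. The brightest probe of every member was well above background on all arrays. Leaving out the filter on dim probes, or detection above negative control spots, therefore left every member difference unchanged. The median over a gene's probes could change only Klf9 and Klf13, the members with more than 1 probe. Counting these fixed values too, 420 of 432 member differences recomputed under the alternatives other than the threshold kept their sign. The 12 that did not were all in iPS-J over ESC and under 2-fold, and 20 crossed the 2-fold line, with causes not tested. Against MEF these were Klf4, Klf3 and Klf13, the last of which reached -1.15 in iPS-OSH and -1.46 in iPS-J by the median over its probes. The deposited values unscaled moved the median over all genes by -0.51 in iPS-J over MEF, and the share of calls that were higher was then 19.8% against 40.4%. Spike-in scaling made that share 26.5% there and 33.1% against 57.0% in ESC over MEF, and the 75th percentile of commonly detected probes made it 68.2% in ESC over MEF. No paired analysis was possible because each population had 1 array and the labels give no replicate numbers. Precision is limited by having 4 arrays in all, and the dimmer Klf9 probe and the dimmest Klf13 probe are nearest to background.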

Other observations

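Macrophage markers, which would mark blood cells in the cultures, summed to 6.69 for iPS-OSH, 6.70 for iPS-J and 4.44 for ESC against 10.6 for MEF, as multiples of each array's 75th percentile. Tyrobp, an adaptor protein of myeloid cells, had signals of 1129 for iPS-OSH, 135 for iPS-J and 119 for ESC against 3104 for MEF, and Lyz2, the myeloid lysozyme gene, had 832 for iPS-OSH, 77.0 for iPS-J and 130 for ESC against 1166 for MEF. The other 3 markers did not share this order. In iPS-OSH over ESC the log2 difference was -0.80 for Ptprc, -0.55 for Csf1r and 1.06 for Cd68, and in iPS-OSH over iPS-J it was 0.28 for Ptprc, -0.53 for Csf1r and -0.15 for Cd68.

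The marker Zfp42, also called Rex1, had signals of 7251 for iPS-OSH and 8441 for iPS-J against 172198 for ESC, log2 differences of -4.83 and -4.28, and 7 of the other 8 pluripotency markers lay within 2-fold of ESC in both iPS lines. The exception, Utf1, had log2 differences over ESC of 1.06 for iPS-OSH and 1.19 for iPS-J. Neither strain nor scan session can be told apart from cell type here.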
